A study of Danio rerio with 3 samples.

Results

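Sorted zebrafish macrophages were compared with the reporter-negative cells of the same embryos, across all genes of the deposited expression table. The mCherry+ cells came from embryos that carried both the mpeg1:mCherry and the mpx:EGFP transgenes on an otherwise wild-type background, were untreated, and were taken at 72 hours post fertilization. The double-negative cells carried neither fluorescent signal and came from the same pool of about 1000 embryos, with the same transgenes, stage and handling. The mpeg1 promoter marks macrophages in fish larvae and the mpx promoter marks neutrophils, so the double-negative cells are a mixture of the remaining tissues of the embryo, with any leukocyte that had neither signal. Pooled embryos were homogenized, filtered and sorted into the mCherry+, the double-negative and an EGFP+ population, with more than 50000 cells each. Each population gave 1 library. No double-positive cells were collected, per the series' design text.

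Genes were kept where the value was at least 1 FPKM in the mCherry+ library, the double-negative library or both. FPKM relates the fragments of a gene to transcript length and to the size of its library, so it is a share of that library. The rule kept 12097 of the 14428 genes. The gene nearest the limit from above was pparaa, with 0.486 FPKM in mCherry+ and 1.0 in double-negative cells. The nearest below it was hla-dpa1, at 0.999969 in mCherry+ cells and listed at 0 in double-negative cells. Ratios are log2 of (FPKM + 1) in mCherry+ over double-negative cells, a scale on which the difference of a weakly expressed gene comes out too small. With 1 library for each group there is no replicate error, and neither tests nor p-values are given. In such bulk libraries, fewer cells of a type and less RNA per cell cannot be told apart. Read depth is unknown, because the files hold no counts. The proteasome gene psmd7 and the mitochondrial ribosome genes mrps15 and mrps16, which all cells use, were listed at 0 in both libraries, so a 0 is given only as listed, with no fold. A gene listed at 0 in 1 library can still pass the 4-fold threshold, since the threshold is set on FPKM + 1.

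Macrophages are the tissue phagocytes of the fish larva. They engulf dying cells and microbes, digest them in an acid lysosome filled with proteases and glycosidases, and recycle or export the lipid and iron that this releases. Development of the lineage depends on PU.1 and Irf8, and survival on the Csf1 receptor. At the stage studied here the fish has innate leukocytes but no mature lymphocytes, and larval macrophages patrol skin, brain, muscle and blood-forming tissue.

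The sorted cells were described with 20 measured macrophage markers, a list chosen with earlier results of these data known. Sorting was on the mpeg1 reporter, so a high mpeg1 value is no independent check of the label. Of the 20 markers, 20 had a ratio above 0 and 19 passed 4-fold in mCherry+ cells. Their median log2 ratio was 7.27. The pore-forming gene mpeg1, whose promoter drives the reporter, had 1396 FPKM in mCherry+ cells against 2.84 in double-negative cells. Its tandem copy mpeg1.2 had 127 FPKM in mCherry+ cells against 1.97 in double-negative cells. The Csf1 receptor gene csf1ra, needed for macrophage survival and also used by yellow pigment cells, had 263 FPKM in mCherry+ cells against 0.817 in double-negative cells. The marker that did not reach 4-fold was timd4, a phosphatidylserine receptor of resident macrophages, at 3.51 FPKM in mCherry+ and 0.93 in double-negative cells. Together the 20 markers summed to 7694 FPKM in mCherry+ cells against 28.3 in double-negative cells. Not all of them separate macrophages from neutrophils. The marker ptpn6 had 148 FPKM in mCherry+ cells and 347 in EGFP+ cells, and ctssb.1 had 1094 and 783. All markers but ptpn6 were highest in mCherry+ cells.

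Neutrophil genes were the nearest other signature. Of 12 measured neutrophil markers, 9 were at least 4-fold higher in mCherry+ cells. The receptor gene for granulocyte colony-stimulating factor, csf3r, had 365 FPKM in mCherry+ cells against 0.67 in double-negative cells, beside 659 in EGFP+ cells. Lysozyme, lyz, had 40.2 FPKM in mCherry+ cells against 2.41 in double-negative cells, beside 12339.8 in EGFP+ cells. Most of these genes stood far below their EGFP+ level: mpx, lyz, npsn, mmp13a, mmp9, scpp8 and abcb9 were in the mCherry+ library at 0.326 to 1.45% of their EGFP+ FPKM. The chemotactic factor gene lect2l stood at 5.16%, the granule proteoglycan gene srgn at 7.41%, nccrp1 at 12.9%, illr4 at 23% and csf3r at 55.4%. Whether these values reflect neutrophils in the sort or expression in macrophages was not tested.

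**Figure D1:**
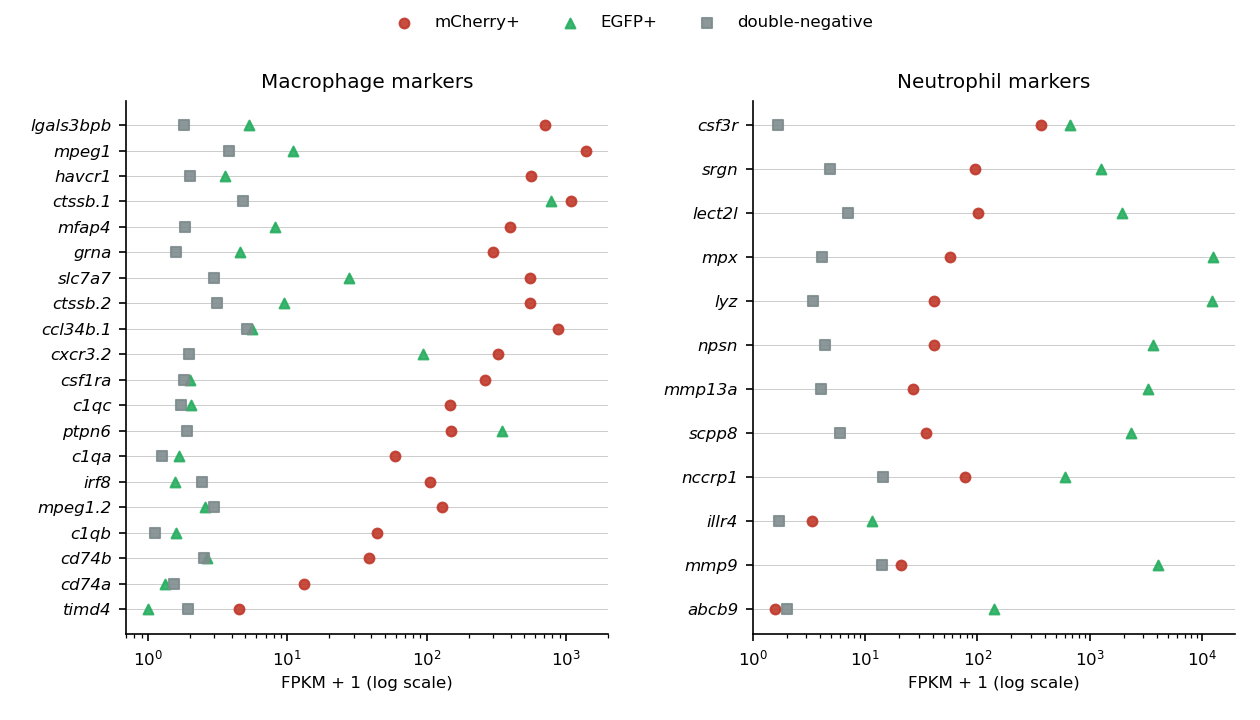
FPKM + 1 on a log axis for each macrophage marker (left) and neutrophil marker (right) in the mCherry+ (red circles), EGFP+ (green triangles) and double-negative (grey squares) libraries, 1 library each. The macrophage markers are highest in the mCherry+ library except ptpn6, and the neutrophil markers are highest in the EGFP+ library.

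Of the 12097 genes, 1005 (8.31%) were at least 4-fold higher in mCherry+ cells and 904 (7.47%) at least 4-fold lower. Of the higher genes, 63 were listed at 0 in double-negative cells, and of the lower genes, 99 were listed at 0 in mCherry+ cells. Below, such genes are said to pass 4-fold upward or downward, and these shares are the background for every list. The median log2 ratio was −0.04, and 55.3% of genes lay within 2-fold. The higher side reached further: at 16-fold, 250 genes passed upward and 57 downward, and at 64-fold 70 upward and 3 downward. The higher genes held 27.1% of all FPKM in mCherry+ cells and 3.45% in double-negative cells. The lower genes held 0.804% in mCherry+ cells and 10.8% in double-negative cells. Their median levels also differed, since the higher genes had a median of 58.2 FPKM in mCherry+ cells and the lower genes a median of 14.5 FPKM in double-negative cells. The gene closest inside the higher threshold was tspan14, a tetraspanin, at 276 FPKM in mCherry+ and 68.2 in double-negative cells, and 453 genes lay within 0.1 log2 units of 4-fold on either side.

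How many genes pass on each side depends on scaling. FPKM sums differed, with 571639 in mCherry+ cells and 356886 in double-negative cells. Higher genes made up 52.65% of those past 4-fold in the deposited values, 38.22% after scaling by the median ratio, 27.39% after scaling to equal sums and 31.69% after scaling by housekeeping genes. These scalings lowered the log2 FPKM ratio of every gene by 0.34, 0.68 and 0.54. Of 63 housekeeping genes tested, the 61 at 1 FPKM or more in both libraries had a median ratio of 0.51 with an SD of 0.59 across genes, which gives a sense of scatter between genes but not between replicates. The small nuclear RNA rn7sk, not removed with ribosomal RNA, held 8.45% of the FPKM sum in mCherry+ cells and 10.3% in double-negative cells.

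**Figure D2:**
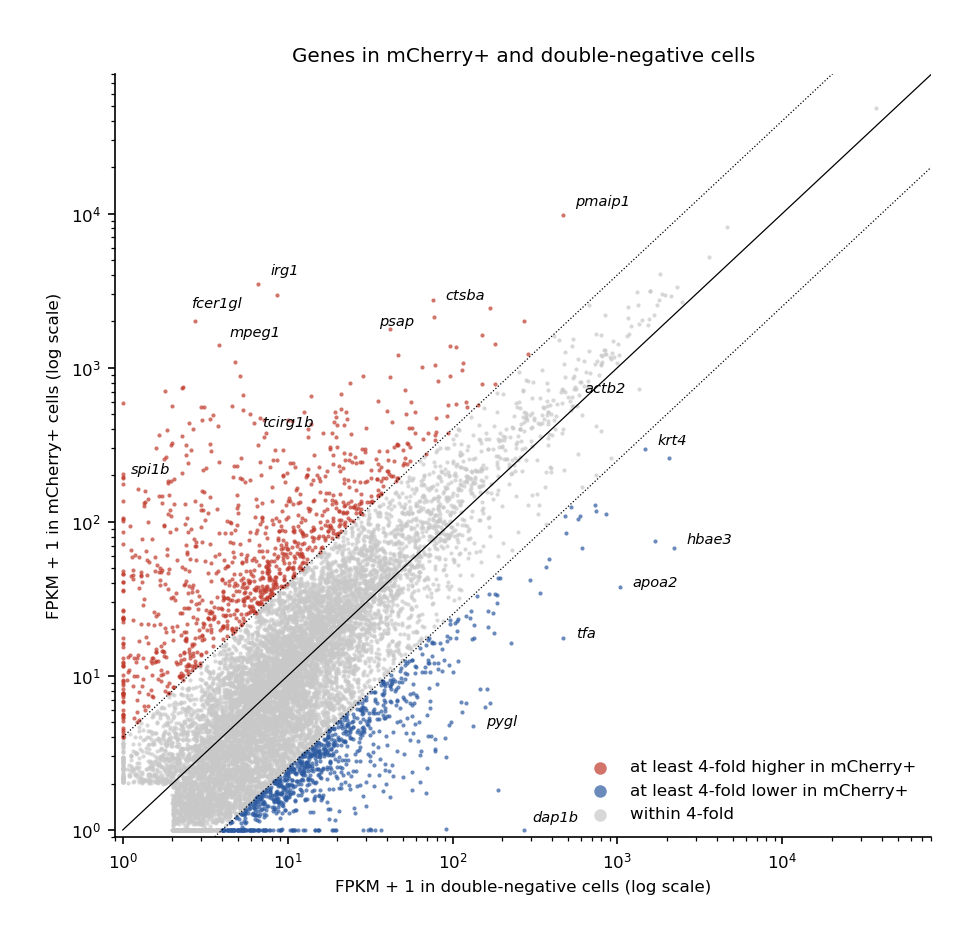
Each point is 1 of 12097 genes, with FPKM + 1 in double-negative cells on the horizontal log axis and in mCherry+ cells on the vertical log axis; the solid line marks equal values and the dotted lines 4-fold. The 1005 red genes lie above the upper dotted line, among them mpeg1 and irg1, and the 904 blue genes lie below the lower one, among them hbae3 and tfa.

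Abundance in the mCherry+ library was led by a mixture of housekeeping and macrophage genes. With clone and locus names left out, the most abundant gene after small RNAs was pmaip1, which encodes the pro-apoptotic BH3-only protein Noxa. It had 9822 FPKM in mCherry+ cells against 465 in double-negative cells and 1167 in EGFP+ cells. Ribosomal protein, ubiquitin and elongation factor genes filled most of the next places, with ratios between 0.13 for rpl36 and 1.17 for ubb. Among the 25 most abundant genes under this name filter, irg1, ctsba, cd63, psap and pmaip1 were at least 4-fold higher. The more abundant row of ccl35.1, given below with the chemokines, was not in this ranking and passed 4-fold too. Cathepsin B, ctsba, had 2733 FPKM in mCherry+ cells against 75.2 in double-negative cells. Prosaposin, psap, the precursor of the activators of sphingolipid breakdown, had 2118 FPKM in mCherry+ cells against 75.9 in double-negative cells. Both lysosomal genes were thus as abundant in mCherry+ cells as many ribosomal protein genes.

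**Figure D3:**
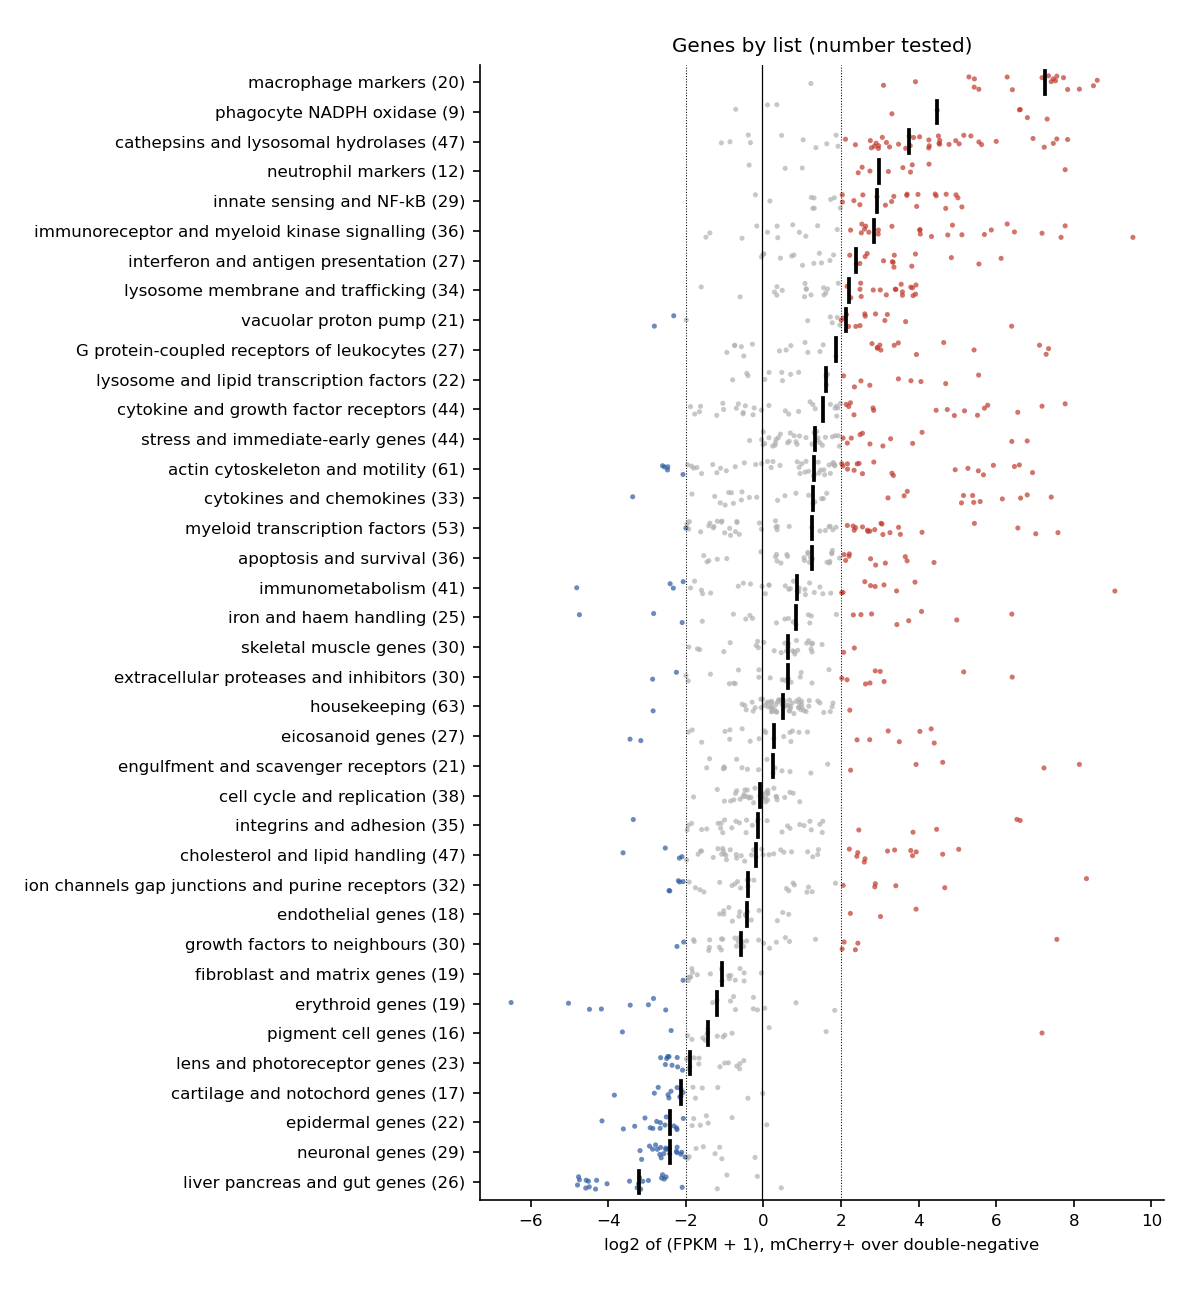
Log2 ratios of (FPKM + 1) in mCherry+ over double-negative cells for each gene (points) in lists with 9 or more genes tested, ordered by the list median (black bars); dotted lines mark 4-fold and the thin line the median of all genes. Macrophage, NADPH oxidase and lysosomal hydrolase lists lie at the top with medians of 7.27, 4.48 and 3.76, and liver, neuronal and epidermal lists at the bottom with medians of −3.21, −2.42 and −2.41.

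Transcription factors of the myeloid lineage lay on both sides of 0. Of 53 tested, 20 passed 4-fold upward and 1 downward, and 21 had a ratio below 0. The median of 1.24 was 0.36 with no filter on low values. The PU.1 gene spi1b, the master regulator of myeloid fate, had 192 FPKM in mCherry+ cells and was listed at 0 in double-negative cells. The Maf-family gene mafbb, tied to macrophage differentiation in mammals, had 318 FPKM in mCherry+ cells against 2.38 in double-negative cells, and its pair partner mafba had 101 FPKM in mCherry+ cells against 7.81 in double-negative cells. Irf8, which directs precursors toward macrophages and away from neutrophils, was encoded by irf8 with 105 FPKM in mCherry+ cells against 1.44 in double-negative cells and 0.565 in EGFP+ cells. All of these regulators were below 10 FPKM in double-negative cells and passed 4-fold.

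Other regulators passed 4-fold from higher double-negative levels, and some lay on the lower side. The orphan nuclear receptor gene nr4a1, an immediate-early gene linked to monocytes in mammals, had 603 FPKM in mCherry+ cells against 34.5 in double-negative cells. The related gene nr4a3 had 229 FPKM in mCherry+ cells against 19.5 in double-negative cells. The C/EBP gene cebpa, shared by granulocyte, macrophage and liver programmes, had 138 FPKM in mCherry+ cells against 13.5 in double-negative cells. The lowest ratio of the list belonged to zeb2b, a zinc-finger repressor, which had 1.08 FPKM in mCherry+ cells against 7.31 in double-negative cells and just passed 4-fold. Its pair partner zeb2a leaned the other way, with 60.9 FPKM in mCherry+ cells against 16.9 in double-negative cells. The C/EBP gene cebpd, with 13.8 FPKM in mCherry+ cells against 54.7 in double-negative cells, was lower in value but within 4-fold. So was the blood progenitor gene meis1, with 16.5 FPKM in mCherry+ cells against 52.8 in double-negative cells.

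Regulators of lysosome and lipid genes leaned the same way: 9 of 22 were at least 4-fold higher, 0 at least 4-fold lower, and the median was 1.62. The haem-responsive repressor gene bach1 had 651 FPKM in mCherry+ cells against 13 in double-negative cells, the largest difference of the list. The MiT/TFE genes switch on lysosome genes through a shared DNA element, and 4 of them passed 4-fold. Among these, mitfb had 48.6 FPKM in mCherry+ cells against 0.911 in double-negative cells and tfeb had 20.5 FPKM in mCherry+ cells against 0.538 in double-negative cells. The tfe3 pair had smaller ratios and higher double-negative levels, with tfe3b at 36.111 FPKM in mCherry+ and 4.55 in double-negative cells and tfe3a at 67.8 FPKM in mCherry+ and 12.5 in double-negative cells. The pigment-cell member mitfa, within 4-fold, was at 3.38 FPKM in mCherry+ and 0.431 in double-negative cells. The lipid-sensing nuclear receptor gene pparg had 24.6 FPKM in mCherry+ cells against 1.29 in double-negative cells. Its partner gene rxrga had 73.2 FPKM in mCherry+ cells against 3.45 in double-negative cells. The oxysterol receptor gene nr1h3 did not pass, with 21.9 FPKM in mCherry+ cells against 6.29 in double-negative cells.

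Lysosomal hydrolases were higher in most cases. Of 47 tested cathepsins, glycosidases, lipases and their cofactors, 37 passed 4-fold upward and 0 downward, with a median of 3.76. Summed, they held 2.56% of the FPKM of mCherry+ cells and 0.208% of that of double-negative cells. The cathepsin L gene ctsl.1 had 401 FPKM in mCherry+ cells against 1.66 in double-negative cells. The acid DNase gene dnase2, which degrades the DNA of engulfed cells, had 457 FPKM in mCherry+ cells against 6.15 in double-negative cells. Cathepsin S is encoded by a tandem pair, and ctssb.2 had 551 FPKM in mCherry+ cells against 2.11 in double-negative cells. Reads of such near-identical copies may have been split between them by the counting, so the values of single ctss and ctsl copies are uncertain.

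Further enzymes of protein and lipid breakdown were higher too. Legumain, lgmn, an asparaginyl protease that activates cathepsins, had 792 FPKM in mCherry+ cells against 23 in double-negative cells. The acid ceramidase gene asah1b had 292 FPKM in mCherry+ cells against 8.42 in double-negative cells. The ganglioside activator gene gm2a had 511 FPKM in mCherry+ cells against 21.5 in double-negative cells. Genes at the other end of the list lay within 4-fold. The secreted cathepsin inhibitor gene cst3 had 97.5 FPKM in mCherry+ cells against 70.3 in double-negative cells. Cathepsin F, ctsf, had 60.2 FPKM in mCherry+ cells against 29.1 in double-negative cells. The thioesterase gene ppt2 and the plasma-membrane sialidase gene neu3.1 had ratios below 0, with ppt2 at 3.6 FPKM in mCherry+ and 7.36 in double-negative cells and neu3.1 at 0.837 FPKM in mCherry+ and 2.9 in double-negative cells.

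The lysosomal membrane followed at a smaller scale. Of 34 membrane and trafficking genes, 18 passed 4-fold upward and 0 downward, with a median of 2.2. The chloride-proton exchanger gene clcn7 had 200.1 FPKM in mCherry+ cells against 12.2 in double-negative cells. The cholesterol exporters npc1 and npc2, which hand sterol from the lysosome to the cell, had 271 FPKM in mCherry+ cells against 18 in double-negative cells for npc1 and 711 FPKM in mCherry+ cells against 50.2 in double-negative cells for npc2. The cystine exporter gene ctns had 49 FPKM in mCherry+ cells against 3.17 in double-negative cells. The mannose 6-phosphate receptor gene m6pr, which delivers hydrolases, had 96.4 FPKM in mCherry+ cells against 7.13 in double-negative cells. Each of these genes was above 1 FPKM in double-negative cells. The sorting receptor gene sort1a ran the other way, at 4.47 FPKM in mCherry+ and 15.6 in double-negative cells, within 4-fold.

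Most genes of the vacuolar proton pump, which acidifies these compartments, were higher. Of 21 subunit genes, 13 passed 4-fold upward and 2 downward, with a median of 2.14. Over all tested genes, 8.31% passed upward and 7.47% downward. Copies of the same subunit that differ in direction are thus described and not read as a trait of the pump. For subunit a, tcirg1b, the copy used by osteoclasts and macrophages in mammals, had 496 FPKM in mCherry+ cells against 4.89 in double-negative cells. Another copy, atp6v0a1b, had the reverse, with 4.73 FPKM in mCherry+ cells against 27.5 in double-negative cells, while atp6v0a1a had 68.3 FPKM in mCherry+ cells against 30.4 in double-negative cells. Subunit B was represented by atp6v1ba at 403 FPKM in mCherry+ and 53.6 in double-negative cells and atp6v1b2 at 1.58 FPKM in mCherry+ and 17.1 in double-negative cells. The proteolipid subunit c was represented by atp6v0ca at 1064 FPKM in mCherry+ and 115 in double-negative cells and atp6v0cb at 9.99 FPKM in mCherry+ and 42.6 in double-negative cells. For subunits a and B, 1 copy passed 4-fold upward and another downward, and atp6v0cb, with a log2 ratio of −1.99, stopped just short of 4-fold. Accessory subunit gene atp6ap1b had 236 FPKM in mCherry+ cells against 17.7 in double-negative cells.

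Engulfment receptors lay on both sides of 0. Of 21 tested, 5 passed 4-fold upward and 0 downward, and the median of 0.25 fell below 0 when libraries were scaled to equal sums or by housekeeping genes. The Tim-family phosphatidylserine receptor havcr1 led the list with 563 FPKM in mCherry+ cells against 0.994 in double-negative cells and 2.58 in EGFP+ cells. The galectin-9-like gene lgals9l1, whose product binds Tim receptors in mammals, had 455 FPKM in mCherry+ cells against 2.03 in double-negative cells. The stabilin gene stab1l, a scavenger receptor gene also used by endothelium, had 106 FPKM in mCherry+ cells against 5.98 in double-negative cells. Bridging molecules did not pass 4-fold, with gas6, the ligand of TAM kinases, at 3.5 FPKM in mCherry+ and 8.21 in double-negative cells and mfge8b at 7.38 FPKM in mCherry+ and 5.8 in double-negative cells. The integrin gene itgb3a, a thrombocyte and engulfment receptor chain, was at 11.9 FPKM in mCherry+ and 34.6 in double-negative cells.

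Lipid genes lay on both sides of 0. Of 47 tested, 12 passed 4-fold upward and 4 downward, and the median of −0.19 rose above 0 at a minimum of 10 FPKM. Some genes of storage and export were among the higher ones. The exporter gene abcg1 was not, at 1.04 FPKM in mCherry+ and 1.11 in double-negative cells. The lipid droplet coat gene plin2 had 180.2 FPKM in mCherry+ cells against 4.53 in double-negative cells. The cholesterol exporter gene abca1b had 121 FPKM in mCherry+ cells against 3.96 in double-negative cells. Apolipoprotein E, apoeb, had 1003 FPKM in mCherry+ cells against 64.5 in double-negative cells. The 25-hydroxycholesterol enzyme gene ch25h had 57.2 FPKM in mCherry+ cells against 4.59 in double-negative cells. Genes past 4-fold downward included ldlr and fabp3. The LDL receptor gene ldlr had 5.97 FPKM in mCherry+ cells against 28.925 in double-negative cells. The fatty acid carrier gene fabp3 had 42.2 FPKM in mCherry+ cells against 193 in double-negative cells. Its relative fabp11a passed 4-fold upward, with 25.6 FPKM in mCherry+ cells against 3.94 in double-negative cells. Elongase genes were found on both sides. The gene elovl1a was at least 4-fold lower, at 3.23 FPKM in mCherry+ and 51 in double-negative cells. Its partner elovl1b, at 53.4 FPKM in mCherry+ and 9.25 in double-negative cells, and elovl5, at 14.6 FPKM in mCherry+ and 0.703 in double-negative cells, were at least 4-fold higher.

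Other apolipoproteins showed that apoeb was an exception in its family. Of 15 genes with apolipoprotein symbols, 1 passed 4-fold upward and 7 downward. The apolipoprotein D gene apodb had 0.812 FPKM in mCherry+ cells against 188 in double-negative cells. The gene apoa1b, a high-density lipoprotein gene, had 2.25 FPKM in mCherry+ cells against 63 in double-negative cells.

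Iron genes on the higher side include genes of haem, iron export and storage, and those on the lower side include transferrin and 1 of its receptors. Of 25 tested, 8 passed 4-fold upward and 3 downward, with a median of 0.84. Haem oxygenase, hmox1, which opens the haem ring, had 288 FPKM in mCherry+ cells against 2.41 in double-negative cells. Ferroportin, slc40a1, the known cellular iron exporter, had 669 FPKM in mCherry+ cells against 20.2 in double-negative cells. The mitochondrial iron importer gene slc25a37 had 106 FPKM in mCherry+ cells against 5.34 in double-negative cells. In mammals hmox1 and slc40a1 serve the macrophages that recycle red cells.

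Ferritin copies were high as well. Of the heavy-chain-like genes, fthl27 had 1633 FPKM in mCherry+ cells against 149.6 in double-negative cells. The copy fthl31 had 315 FPKM in mCherry+ cells against 44.7 in double-negative cells, and fthl28 had 200.1 FPKM in mCherry+ cells against 14 in double-negative cells. All of these passed 4-fold, while fth1a, with 437 FPKM in mCherry+ cells against 346 in double-negative cells, did not. These copies are similar in sequence, so the division of reads among them is uncertain. The lower side held genes known from liver. Transferrin, tfa, had 16.5 FPKM in mCherry+ cells against 468 in double-negative cells. The transferrin receptor gene tfr2 was listed at 0 in mCherry+ cells and at 6.12 FPKM in double-negative cells. The ferroxidase gene cp had 0.457 FPKM in mCherry+ cells against 5.22 in double-negative cells.

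**Figure D4:**
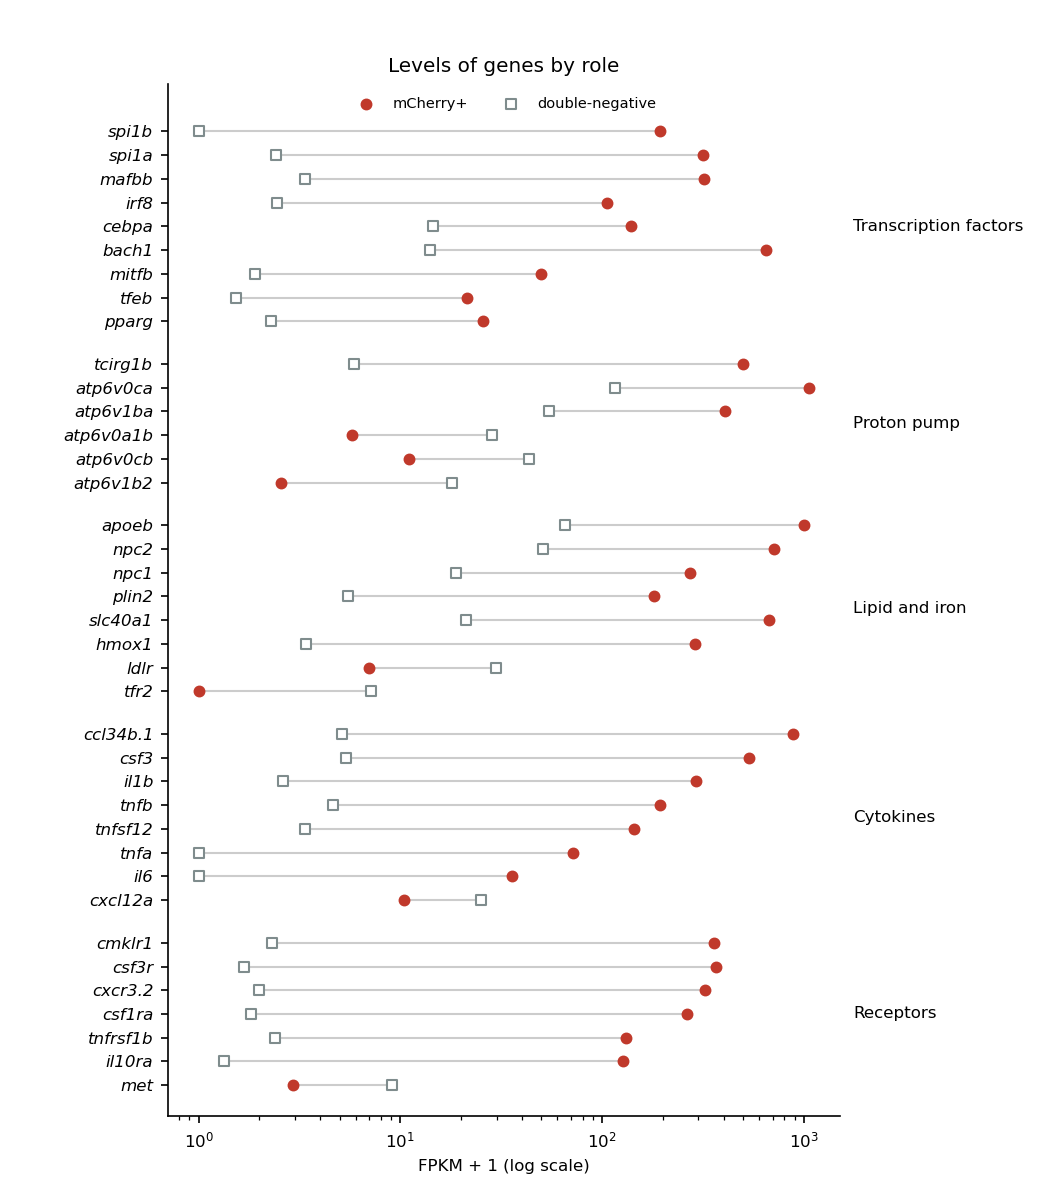
FPKM + 1 on a log axis for genes grouped by role, with filled red circles for mCherry+ cells and open squares for double-negative cells, 1 library each. The PU.1 gene spi1b, tnfa and il6 are listed at 0 in double-negative cells and tfr2 in mCherry+ cells. The proton pump genes shown were picked to display both directions, 3 above and 3 below their double-negative level in mCherry+ cells. In the whole list of 21 pump genes, 18 lay above and 3 below.

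Metabolic genes of activated macrophages were led by 1 gene. Of 41 tested, 9 passed 4-fold upward and 4 downward, with a median of 0.87. The itaconate-producing enzyme gene irg1 had 3502 FPKM in mCherry+ cells against 5.57 in double-negative cells and 125 in EGFP+ cells. Its related gene irg1l, known from epidermis in fish, had 1.38 FPKM in mCherry+ cells against 11.603 in double-negative cells. Glutamine synthetase, glula, had 601 FPKM in mCherry+ cells against 54.8 in double-negative cells. These values put irg1 among the 25 most abundant genes of the library, with clone and locus names left out.

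Several glycolytic genes were higher in mCherry+ cells. Hexokinase 2, hk2, had 30.2 FPKM in mCherry+ cells against 1.08 in double-negative cells. The gene pfkfb3, whose product makes the activator of phosphofructokinase, had 189 FPKM in mCherry+ cells against 21 in double-negative cells. The pyruvate kinase gene pkma had 322 FPKM in mCherry+ cells against 51.9 in double-negative cells. All of these passed 4-fold. In the pentose phosphate pathway, pgd had 184 FPKM in mCherry+ cells against 24.1 in double-negative cells. Liver glycogen phosphorylase, pygl, had 3.76 FPKM in mCherry+ cells against 133 in double-negative cells. The lower side thus held a liver gene, and the glucose transporter gene slc2a3a at 2.45 FPKM in mCherry+ and 11.7 in double-negative cells stayed within 4-fold.

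Eicosanoid genes lay on both sides of 0. Of 27 tested, 7 passed 4-fold upward and 2 downward, and the median of 0.27 fell below 0 when libraries were scaled to equal sums or by housekeeping genes. The 5-lipoxygenase gene alox5 had 31.7 FPKM in mCherry+ cells against 1.89 in double-negative cells. Its activating protein gene alox5ap had 22.1 FPKM in mCherry+ cells against 0.152 in double-negative cells. The leukotriene A4 hydrolase gene lta4h had 122 FPKM in mCherry+ cells against 12.3 in double-negative cells. These enzymes of leukotriene synthesis and their partner passed 4-fold, while the leukotriene receptor gene cysltr1 was nearly equal, at 1.05 FPKM in mCherry+ and 1.005 in double-negative cells. In EGFP+ cells alox5 was at 154 FPKM, alox5ap at 275 and lta4h at 1149, each above its mCherry+ level. The prostacyclin synthase gene ptgis had 296 FPKM in mCherry+ cells against 17.1 in double-negative cells. The epoxide hydrolase gene ephx2 had 197 FPKM in mCherry+ cells against 8.36 in double-negative cells. Both of these passed 4-fold. Of the cyclooxygenase genes, ptgs2a had 25.5 FPKM in mCherry+ cells against 47.3 in double-negative cells and ptgs2b had 15.3 FPKM in mCherry+ cells against 10.4 in double-negative cells. The constitutive gene ptgs1 had 3.53 FPKM in mCherry+ cells against 2.76 in double-negative cells. The lipocalin-type prostaglandin D synthase gene ptgdsb was at 7.36 FPKM in mCherry+ and 31 in double-negative cells.

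Signalling components downstream of immune receptors were higher in most cases. Of 36 tested, 24 passed 4-fold upward and 0 downward, with a median of 2.84. The Fc receptor gamma chain carries the activation motif for several receptors, and its gene fcer1gl had the largest ratio of all 12097 genes, with 2011 FPKM in mCherry+ cells against 1.73 in double-negative cells. Its relative fcer1g had 203 FPKM in mCherry+ cells and was listed at 0 in double-negative cells. The adaptor gene hcst had 25.9 FPKM in mCherry+ cells and was listed at 0 in double-negative cells. The gene fcer1gl was also high in EGFP+ cells, at 4832 FPKM.

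Kinases, phosphatases and scaffolds followed. The phosphatase gene ptpn6, a brake on these receptors, had 148 FPKM in mCherry+ cells against 0.916 in double-negative cells and 347 in EGFP+ cells. The adaptor gene blnk, named for B cells but used by myeloid cells as well, had 65 FPKM in mCherry+ cells against 0.126 in double-negative cells. The Src-family kinase gene lyn had 69.6 FPKM in mCherry+ cells against 1.41 in double-negative cells, and syk, which binds the activation motif, had 55.3 FPKM in mCherry+ cells against 1.8 in double-negative cells. The more general kinase genes stayed within 4-fold, with src at 9.5 FPKM in mCherry+ and 7.13 in double-negative cells and yes1 at 43.431 FPKM in mCherry+ and 22.4 in double-negative cells. In pairs picked with values known, the same contrast held between leukocyte and general copies of GTPase and actin regulator genes. The leukocyte GTPase gene rac2 had 242 FPKM in mCherry+ cells against 23.5 in double-negative cells, and the general gene rac1 had 36.128 FPKM in mCherry+ cells against 33.5 in double-negative cells. The leukocyte gene nckap1l had 146 FPKM in mCherry+ cells against 0.656 in double-negative cells, and the general gene nckap1 had 7.66 FPKM in mCherry+ cells against 15.8 in double-negative cells.

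Cytokine genes of acute inflammation were present in untreated mCherry+ cells. Of 33 tested, 12 passed 4-fold upward and 1 downward, with a median of 1.28, which was 0.46 with no filter on low values and 3.63 at a minimum of 10 FPKM. The macrophage chemokine gene ccl34b.1 had 877 FPKM in mCherry+ cells against 4.13 in double-negative cells and 4.62 in EGFP+ cells. The tumour necrosis factor genes were tnfb at 194 FPKM in mCherry+ and 3.63 in double-negative cells and tnfa, at 70.4 in mCherry+ cells and listed at 0 in double-negative cells. In EGFP+ cells tnfb was at 184 FPKM and tnfa at 9.58. The death ligand family member tnfsf12 had 143 FPKM in mCherry+ cells against 2.38 in double-negative cells. The interleukin 6 gene il6 had 34.7 FPKM in mCherry+ cells and was listed at 0 in double-negative cells. The gene il12a, a subunit of interleukin 12, had 12.1 FPKM in mCherry+ cells and was listed at 0 in double-negative cells.

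Chemokine genes formed tandem groups with different behaviour. In the chemokine family, whose median of 1.82 was 0 with no filter on low values, 9 of 19 tested genes passed 4-fold upward and 1 downward. The gene ccl38.1 had 85.1 FPKM in mCherry+ cells against 1.5 in double-negative cells. The symbol ccl35.1 belongs to a pair of rows in the table, at 2943 and 47.1 FPKM in mCherry+ cells against 7.58 and 0 in double-negative cells, so its level cannot be assigned to 1 locus. The gene ccl38a.5 had 195 FPKM in mCherry+ cells and was listed at 0 in double-negative cells. Some chemokine genes had ratios below 0: cxcl14 had 5.65 FPKM in mCherry+ cells against 22.9 in double-negative cells, and the CXCR4 ligand cxcl12a had 9.47 FPKM in mCherry+ cells against 24 in double-negative cells. Neither of them passed 4-fold, and ccl-c5a, listed at 0 in mCherry+ cells and at 9.35 in double-negative cells, was the member that did.

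Those cytokine values stood beside a stress list with most ratios above 0, and cells were dissociated and sorted before lysis. Of 44 stress and immediate-early genes, 40 had a ratio above 0, 12 passed 4-fold upward and 0 downward, with a median of 1.34. That median was 0.66 when libraries were scaled to equal sums and 0.80 when scaled by housekeeping genes. Among 63 housekeeping genes, 53 had a ratio above 0, with a median of 0.51. The stress list includes il1b, hmox1 and nr4a1. Several immediate-early genes were high in both libraries. The gene fos had 1201 FPKM in mCherry+ cells against 1018 in double-negative cells. The gene atf3 had 254 FPKM in mCherry+ cells against 205 in double-negative cells, and egr1 had 353 FPKM in mCherry+ cells against 223 in double-negative cells. The small heat shock gene hspb1 had 2562 FPKM in mCherry+ cells against 671 in double-negative cells. The part that handling had in the cytokine values was not tested.

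Genes for signals to neighbouring cells lay on both sides of 0. Of 30 growth factor genes, 5 were at least 4-fold higher, 2 were at least 4-fold lower, 19 had a ratio below 0 and the median was −0.58. The progranulin gene grna had 301 FPKM in mCherry+ cells against 0.596 in double-negative cells and its relative grnb had 79.3 FPKM in mCherry+ cells against 14.5 in double-negative cells. The gene igf2b, an insulin-like growth factor gene, had 148 FPKM in mCherry+ cells against 34.2 in double-negative cells. The platelet-derived growth factor gene pdgfab had 37.5 FPKM in mCherry+ cells against 8.44 in double-negative cells, and the lymphatic growth factor gene vegfc had 11.8 FPKM in mCherry+ cells against 1.37 in double-negative cells. The vessel growth factor pair of vegfa genes did not pass upward, with vegfaa at 12.9 FPKM in mCherry+ and 20.4 in double-negative cells and vegfab at 2.35 FPKM in mCherry+ and 7.77 in double-negative cells. Connective tissue growth factor, ctgfa, was at 30.8 FPKM in mCherry+ and 108 in double-negative cells.

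Receptors for cytokines and growth factors lay on both sides of 0. Of 44 tested, 16 passed 4-fold upward and 0 downward, with a median of 1.53. The interleukin 10 receptor gene il10ra had 125 FPKM in mCherry+ cells against 0.343 in double-negative cells. The tumour necrosis factor receptor gene tnfrsf1b had 130.2 FPKM in mCherry+ cells against 1.39 in double-negative cells. The shared beta chain gene csf2rb had 58.3 FPKM in mCherry+ cells against 0.143 in double-negative cells. The interleukin 2 receptor chain genes il2rb, which had 44.8 FPKM in mCherry+ cells and was listed at 0 in double-negative cells, and il2rga, at 27.9 FPKM in mCherry+ and 0.322 in double-negative cells, are shared by several cytokines. Other growth factor receptor genes stayed within 4-fold on either side. The transforming growth factor receptor gene tgfbr1b had 38.588 FPKM in mCherry+ cells against 14.7 in double-negative cells. The hepatocyte growth factor receptor gene met had 1.95 FPKM in mCherry+ cells against 8.08 in double-negative cells. The fibroblast growth factor receptor gene fgfr1a had 2.37 FPKM in mCherry+ cells against 5.96 in double-negative cells. Levels of met and fgfr1a were thus lower in mCherry+ cells. The growth hormone receptor gene ghra had 1.82 FPKM in mCherry+ cells against 9.4 in double-negative cells.

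Leukocyte G protein-coupled receptors had 13 of 27 genes past 4-fold upward and 0 downward, with a median of 1.87 that was 1.11 with no filter on low values. The gene cxcr3.2, a chemokine receptor used by fish macrophages to reach infection, had 323 FPKM in mCherry+ cells against 0.988 in double-negative cells. The chemerin receptor gene cmklr1 had 358 FPKM in mCherry+ cells against 1.3 in double-negative cells. The gene gpr84, a receptor for medium-chain fatty acids, had 467 FPKM in mCherry+ cells against 2.37 in double-negative cells, with 574 in EGFP+ cells. The lysophospholipid-related receptor gene gpr132b had 89.4 FPKM in mCherry+ cells against 1.1 in double-negative cells, and the homing receptor gene ccr9a had 68.6 FPKM in mCherry+ cells against 1.78 in double-negative cells. Vascular sphingosine and chemokine scavenging receptors showed the opposite sign, with s1pr1 at 12.4 FPKM in mCherry+ and 24.9 in double-negative cells and cxcr7b at 12.9 FPKM in mCherry+ and 19.6 in double-negative cells, both within 4-fold.

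Channel and junction genes held 1 extreme member. The connexin gene cx32.2 had 738 FPKM in mCherry+ cells against 1.3 in double-negative cells and 4.47 in EGFP+ cells. Of 32 genes in the list, 6 passed 4-fold upward and 5 downward, and the median of −0.39 rose above 0 at a minimum of 10 FPKM. The intracellular chloride channel family genes were higher as well, with clic2 at 539 FPKM in mCherry+ and 20.1 in double-negative cells and clic1 at 249.6 FPKM in mCherry+ and 22.5 in double-negative cells. Cation channels followed. The calcium-permeable channel gene trpv4 had 54.2 FPKM in mCherry+ cells against 6.48 in double-negative cells. The ATP-gated channel gene p2rx7 had 30.9 FPKM in mCherry+ cells against 3.36 in double-negative cells. The widely used connexin gene cx43 passed narrowly, with 86.5 FPKM in mCherry+ cells against 20.1 in double-negative cells. The lower side included the connexin gene cx28.9 at 2.53 FPKM in mCherry+ and 18.1 in double-negative cells and the water channel gene aqp8a.1 at 3.68 FPKM in mCherry+ and 24 in double-negative cells. Families of potassium, sodium and calcium channel symbols had no gene at least 4-fold higher among 66 tested.

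The phagocyte NADPH oxidase makes superoxide in the phagosome. Of 9 genes tested in its list, 6 passed 4-fold upward and 0 downward, 1 had a ratio below 0 and the median was 4.48. Subunit genes given here are from the higher ones. The membrane subunit gene cybb had 269 FPKM in mCherry+ cells against 1.42 in double-negative cells. Its partner cyba had 239.8 FPKM in mCherry+ cells against 9.79 in double-negative cells, the highest double-negative level of these subunits. The cytosolic subunit gene ncf1 had 313 FPKM in mCherry+ cells against 0.975 in double-negative cells. The cytosolic subunit gene ncf4 had 138 FPKM in mCherry+ cells against 0.417 in double-negative cells. Each of these passed 4-fold, as did rac2. The epithelial oxidase gene nox1 was at 0.742 FPKM in mCherry+ and 1.86 in double-negative cells. In EGFP+ cells ncf1 was at 718 FPKM, above its level in mCherry+ cells.

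Glutathione enzymes, which detoxify the peroxides that follow, were mixed. Of 30 tested, 5 passed 4-fold upward and 4 downward. Glutathione reductase, gsr, had 462 FPKM in mCherry+ cells against 22.1 in double-negative cells. The peroxidase gene gpx1a had 177 FPKM in mCherry+ cells against 21 in double-negative cells. The gene gclm, the modifier subunit of the rate-limiting ligase, had 48.4 FPKM in mCherry+ cells against 6.65 in double-negative cells. Each of these passed 4-fold. The secreted peroxidase gene gpx3 was at 1.18 FPKM in mCherry+ and 12.2 in double-negative cells, and gpx4a was at 4.21 FPKM in mCherry+ and 34.6 in double-negative cells.

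Microbe sensing and NF-kB genes had 20 of 29 genes past 4-fold upward and 0 downward, with a median of 2.93. The flagellin receptor gene tlr5b had 97.7 FPKM in mCherry+ cells against 3.51 in double-negative cells. The C-type lectin adaptor gene card9 had 43.8 FPKM in mCherry+ cells against 0.293 in double-negative cells. NF-kB inhibitor genes, which NF-kB itself induces, were abundant: nfkbiaa had 1215 FPKM in mCherry+ cells against 45.4 in double-negative cells, and nfkbie had 433 FPKM in mCherry+ cells against 12.9 in double-negative cells. The NF-kB subunit gene rel had 201 FPKM in mCherry+ cells against 12.1 in double-negative cells and rela, within 4-fold, had 21.6 FPKM in mCherry+ cells against 5.8 in double-negative cells. Some upstream components stayed within 4-fold. The endotoxin-receptor-like gene tlr4ba had 3.62 FPKM in mCherry+ cells against 3.12 in double-negative cells. The adaptor gene myd88 had 18.8 FPKM in mCherry+ cells against 7.4 in double-negative cells. The inflammasome adaptor gene pycard had 98.5 FPKM in mCherry+ cells against 40.2 in double-negative cells.

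Antigen presentation and interferon genes had 15 of 27 genes past 4-fold upward and 0 downward, with a median of 2.39 that was 0.90 with no filter on low values. The costimulation genes were cd83 at 473 FPKM in mCherry+ and 5.78 in double-negative cells and cd40 at 76.7 FPKM in mCherry+ and 1.71 in double-negative cells. The invariant chain gene cd74b, an MHC class II chaperone, had 37.3 FPKM in mCherry+ cells against 1.53 in double-negative cells. In mCherry+ cells cd74b was far under the most abundant lysosomal genes, such as ctsba and psap, but above others, such as galcb and glb1l. The class I gene mhc1zba had 222 FPKM in mCherry+ cells against 20.6 in double-negative cells. Interferon-related genes differed among themselves. The regulator gene irf7 had 28.5 FPKM in mCherry+ cells against 1.91 in double-negative cells, and the ubiquitin-like gene isg15 had 12.8 FPKM in mCherry+ cells against 1.24 in double-negative cells. The signal transducer gene stat1a, with 33.4 FPKM in mCherry+ cells against 19.8 in double-negative cells, stayed within 4-fold. The suppressor gene socs3a, at 83.6 FPKM in mCherry+ and 84.1 in double-negative cells, and irf1b, at 6.79 FPKM in mCherry+ and 7.07 in double-negative cells, were nearly equal in both libraries.

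Complement genes passed in both directions. Of 25 genes matched by symbol, which take in some unrelated symbols such as c21orf59, 4 passed 4-fold upward and 10 downward. The C1q chains, which macrophages make, were all higher. Chain genes c1qa and c1qb were at like levels, with c1qa at 58.1 FPKM in mCherry+ and 0.259 in double-negative cells and c1qb at 43.355 FPKM in mCherry+ and 0.128 in double-negative cells. The gene c1qc had 146 FPKM in mCherry+ cells against 0.723 in double-negative cells. Properdin, cfp, which stabilizes the alternative pathway convertase, had 241 FPKM in mCherry+ cells against 9.38 in double-negative cells. Components known from liver were among those past 4-fold downward. The C3 gene c3a had 1.28 FPKM in mCherry+ cells against 20.6 in double-negative cells. The membrane attack gene c8b had 0.137 FPKM in mCherry+ cells against 5.73 in double-negative cells, and c8g was listed at 0 in mCherry+ cells and at 7.69 FPKM in double-negative cells.

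Several actin genes, in pairs picked with values known, split between haematopoietic and general copies. Of 61 tested, 19 passed 4-fold upward and 5 downward, 43 had a ratio above 0 and the median was 1.31. The haematopoietic actin bundler lcp1 had 239 FPKM in mCherry+ cells against 1.48 in double-negative cells, and the general bundler gene pls3 had 30.1 FPKM in mCherry+ cells against 101 in double-negative cells. The Wiskott-Aldrich gene wasb had 117 FPKM in mCherry+ cells against 0.945 in double-negative cells, and the broadly used gene waslb had 6.69 FPKM in mCherry+ cells against 11.7 in double-negative cells. The Arp2/3 subunit copy arpc1b had 880.0 FPKM in mCherry+ cells against 27.6 in double-negative cells, and arpc1a had 101 FPKM in mCherry+ cells against 143 in double-negative cells. In each of these pairs the first gene was at least 4-fold higher and the second was lower in value but within 4-fold.

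Named myosin and severing genes passed in different directions. The class I myosin genes of leukocytes, myo1f at 59.7 FPKM in mCherry+ and 0.192 in double-negative cells and myo1g at 63.3 FPKM in mCherry+ and 0.381 in double-negative cells, were at least 4-fold higher. Cofilin, cfl1, was at 103 FPKM in mCherry+ and 579 in double-negative cells, and gelsolin gene gsnb was at 2.57 FPKM in mCherry+ and 19.9 in double-negative cells, both at least 4-fold lower. In EGFP+ cells cfl1 was at 1580 FPKM, above its double-negative level, and gsnb at 5.48, below it. The beta-actin gene actb2 had 1056 FPKM in mCherry+ cells against 470.4 in double-negative cells.

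Adhesion genes lay on both sides of 0. Of 35 tested, 5 passed 4-fold upward and 1 downward, 19 had a ratio below 0 and the median was −0.15. The integrin activator gene fermt3b had 134 FPKM in mCherry+ cells against 0.373 in double-negative cells. The focal adhesion gene parvg had 189 FPKM in mCherry+ cells against 1.05 in double-negative cells. Talin, tln1, which links integrins to actin, had 151 FPKM in mCherry+ cells against 26.7 in double-negative cells. The selectin ligand gene selplg was higher too, with 83.1 FPKM in mCherry+ cells against 2.81 in double-negative cells. Among 16 genes with integrin symbols, 0 passed 4-fold upward and 0 downward. Epithelial chains were the lowest of them, with itga6b at 5.44 FPKM in mCherry+ and 23.7 in double-negative cells and itga3b at 5.07 FPKM in mCherry+ and 20.9 in double-negative cells. The leukocyte beta-2 chain was not analysed here.

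Extracellular proteases had 9 of 30 genes past 4-fold upward and 2 downward, with a median of 0.63 that fell to −0.01 when libraries were scaled to equal sums. Urokinase, plaua, which activates plasminogen, had 84.2 FPKM in mCherry+ cells and was listed at 0 in double-negative cells. The transglutaminase gene f13a1b, a clotting factor subunit that macrophages also make, had 241 FPKM in mCherry+ cells against 5.77 in double-negative cells. The sheddase genes were adam8a at 54.8 FPKM in mCherry+ and 5.46 in double-negative cells and adam9 at 75 FPKM in mCherry+ and 8.44 in double-negative cells. The inhibitor gene timp2b had 181 FPKM in mCherry+ cells against 28.3 in double-negative cells. The heparan sulphate carrier gene sdc4 had 2006 FPKM in mCherry+ cells against 271 in double-negative cells. Plasminogen itself, plg, a liver product, was at 1.79 FPKM in mCherry+ and 19.2 in double-negative cells. The series' title names the gelatinase genes mmp2 and mmp9, and both stayed within 4-fold. Of these, mmp2 had 28.2 FPKM in mCherry+ cells against 74.5 in double-negative cells, and mmp9 had 19.9 FPKM in mCherry+ cells against 13.2 in double-negative cells and 4036 in EGFP+ cells.

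Membrane traffic genes lay on both sides of 0, and the counts for Rab symbols stand beside 8.31% upward and 7.47% downward over all tested genes. Among 62 genes with Rab symbols, 8 passed 4-fold upward and 6 downward. These take in some genes that are not GTPases, such as rab11fip4b, which passed upward. The median of 0.41 fell below 0 when libraries were scaled to equal sums or by housekeeping genes. The late endosome gene rab7b had 180.2 FPKM in mCherry+ cells against 8.64 in double-negative cells. The exocytic gene rab8b had 225 FPKM in mCherry+ cells against 6.77 in double-negative cells. The lysosome-related organelle gene rab32a had 39.3 FPKM in mCherry+ cells against 3.16 in double-negative cells. The neuronal gene rab6bb was at least 4-fold lower, at 1.56 FPKM in mCherry+ and 19 in double-negative cells. The epithelial pair divided, with rab25a listed at 0 in mCherry+ cells and at 5.63 FPKM in double-negative cells and rab25b at 43.3 FPKM in mCherry+ and 28.6 in double-negative cells. Among SNAREs, the leukocyte gene stx11a had 131 FPKM in mCherry+ cells against 0.35 in double-negative cells and snap23.1 had 117 FPKM in mCherry+ cells against 19.5 in double-negative cells. The synaptic genes vamp2, at 10.1 FPKM in mCherry+ and 80.8 in double-negative cells, and snap25a, at 11.087 FPKM in mCherry+ and 76.1 in double-negative cells, were at least 4-fold lower.

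Sorting nexins, which bend and sort endosomal membrane, had 10 of 28 genes past 4-fold upward and 0 downward, with a median of 1.62. The gene snx10b, whose mammalian counterpart is needed by osteoclasts, had 84.9 FPKM in mCherry+ cells against 0.941 in double-negative cells and its partner snx10a had 60.4 FPKM in mCherry+ cells against 1.47 in double-negative cells. The gene snx18a had 287 FPKM in mCherry+ cells against 34.6 in double-negative cells. Among the lowest were snx18b at 2.97 FPKM in mCherry+ and 5.95 in double-negative cells and snx6 at 23.7 FPKM in mCherry+ and 23.057 in double-negative cells.

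Solute carrier genes, a large family, lay on both sides of 0. Over all tested genes, 8.31% passed 4-fold upward and 7.47% downward. Of 249 solute carrier genes, 38 passed 4-fold upward and 23 downward, and the median was −0.05, or 0.93 at a minimum of 10 FPKM. Amino acid carriers were among the largest ratios. The gene slc7a7, a light chain for export of cationic amino acids that is used in microglia of fish, had 552 FPKM in mCherry+ cells against 1.99 in double-negative cells. Its heavy chain partner slc3a2a had 356 FPKM in mCherry+ cells against 12.4 in double-negative cells. The gene slc43a2b, for large neutral amino acids, had 396 FPKM in mCherry+ cells against 12.3 in double-negative cells. The bile and steroid carrier gene slc51a was listed at 0 in mCherry+ cells and at 30.8 in double-negative cells, and the neuronal GABA transporter gene slc6a1a was at 1.34 FPKM in mCherry+ and 22.2 in double-negative cells.

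Apoptosis genes of both signs of action were higher. Of 36 tested, 10 passed 4-fold upward and 0 downward, with a median of 1.24. Beside pmaip1, the pro-death genes bcl2l11, which encodes Bim, had 175 FPKM in mCherry+ cells against 12.9 in double-negative cells and baxb had 38 FPKM in mCherry+ cells against 3.42 in double-negative cells. Genes that oppose death passed as well. The survival genes were mcl1b at 783 FPKM in mCherry+ and 179.7 in double-negative cells and bcl2l10 at 93.2 FPKM in mCherry+ and 19.4 in double-negative cells. The caspase inhibitor family gene birc2 had 254 FPKM in mCherry+ cells against 33.275 in double-negative cells. The inflammatory caspase gene caspa had 83 FPKM in mCherry+ cells against 5.45 in double-negative cells. The executioner gene casp6 was at 1.44 FPKM in mCherry+ and 5.7 in double-negative cells, within 4-fold.

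No cell cycle gene of the list passed 4-fold: of 38 tested, 0 were at least 4-fold higher, 0 at least 4-fold lower and the median was −0.09. The replication clamp gene pcna had 182 FPKM in mCherry+ cells against 151 in double-negative cells. The replicative helicase gene mcm6 had 15.2 FPKM in mCherry+ cells against 8.53 in double-negative cells. The mitotic cyclin gene ccnb1 had 7.92 FPKM in mCherry+ cells against 13.7 in double-negative cells. In the deposited values these genes lay within 4-fold, on either side of 0. The microtubule gene stmn1a, high in dividing and neural cells, was at 7.11 FPKM in mCherry+ and 27.3 in double-negative cells, the lowest of the list.

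Core machinery lay close to equal in the deposited values. Among 85 cytosolic ribosomal protein and S6 kinase genes 1 was at least 4-fold higher, with a family median of 0.48 that fell below 0 when libraries were scaled to equal sums or by housekeeping genes. Respiratory complex I had a median of −0.06 over 40 genes and mitochondrial ribosomal proteins a median of −0.37 over 60, with 0 genes past 4-fold in either. Splicing factors had a median of 0.00 over 41 genes, with 0 past 4-fold and a median below 0 under each of the 3 scalings. Proteasome subunits had a median of 0.20 over 46 genes, which was likewise below 0 after scaling. Of these genes, 2 passed 4-fold upward and 0 downward.

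Lists of differentiated tissues lay at the low end. Liver, pancreas and gut genes had 22 of 26 genes past 4-fold downward and 0 upward, and their median was −3.21. The fibrinogen chains, partners in clotting, were low together in mCherry+ cells, with fgb at 1.38 FPKM in mCherry+ and 55.6 in double-negative cells and fgg at 2.92 FPKM in mCherry+ and 88.5 in double-negative cells. The plasma inhibitor precursor gene ambp had 1.22 FPKM in mCherry+ cells against 48.9 in double-negative cells, and the retinol carrier gene rbp4 had 66.6 FPKM in mCherry+ cells against 605 in double-negative cells. The insulin gene ins, with 14.2 FPKM in mCherry+ cells against 10.034 in double-negative cells, stayed within 4-fold. Hepcidin, hamp2, the liver hormone that limits ferroportin, had 0.0149 FPKM in mCherry+ cells against 30.4 in double-negative cells.

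Other tissues followed. Erythroid genes had 8 of 19 at least 4-fold lower, and their summed level was 374 FPKM in mCherry+ cells against 4431 in double-negative cells. The embryonic globin gene hbae3 had 66.6 FPKM in mCherry+ cells against 2201 in double-negative cells, and hbae1 had 74.3 FPKM in mCherry+ cells against 1685 in double-negative cells. Globin copies are near-identical and their separate values are uncertain. The first enzyme of haem synthesis in red cells, alas2, had 1.23 FPKM in mCherry+ cells against 23.13 in double-negative cells. Epidermal genes had 15 of 22 at least 4-fold lower. Among them, the epithelial cell adhesion gene epcam was at 20.3 FPKM in mCherry+ and 134 in double-negative cells. The gene icn2 was at 7.21 FPKM in mCherry+ and 146 in double-negative cells.

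Neural and skeletal tissues showed the same direction. Neuronal genes had 21 of 29 at least 4-fold lower, and 29 of 29 had a ratio below 0. The RNA-binding neuronal gene elavl3 had 9.58 FPKM in mCherry+ cells against 71.7 in double-negative cells. The motor neuron gene isl1 had 3.15 FPKM in mCherry+ cells against 30.8 in double-negative cells. The synuclein gene sncgb had 5.43 FPKM in mCherry+ cells against 55.7 in double-negative cells. Cartilage and notochord genes had 11 of 17 at least 4-fold lower, with the cartilage matrix gene matn1 at 11.591 FPKM in mCherry+ and 87.4 in double-negative cells. Fibroblast genes were lower in value in 19 of 19, but 1 passed 4-fold, the matrix gene postnb at 123 FPKM in mCherry+ and 522 in double-negative cells. The collagen gene col1a1a had 256.5 FPKM in mCherry+ cells against 914 in double-negative cells. The median of the fibroblast list, −1.08, was closer to that of all genes than the medians of the neuronal and cartilage lists were.

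Most patterning and adhesion genes had ratios below 0. Of 46 Hox genes, 0 passed 4-fold upward and 10 downward, with a median of −1.29 and hoxb6b lowest at 0.369 FPKM in mCherry+ and 17.1 in double-negative cells. Of 72 cadherins and protocadherins, 0 passed 4-fold upward and 10 downward, with cdh1 at 31.8 FPKM in mCherry+ and 69.5 in double-negative cells. Of 33 claudins, 1 passed 4-fold upward, with a log2 ratio of 5.01, and 9 downward. Among the lower ones was the epidermal gene cldne, at 6.33 FPKM in mCherry+ and 59.9 in double-negative cells. Notch pathway genes had a median of −1.25, and notch2 stood apart at 86.5 FPKM in mCherry+ and 16.7 in double-negative cells, at least 4-fold higher.

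Markers of some other cell types did not fall. Skeletal muscle genes had 22 of 30 ratios above 0, 2 past 4-fold upward and 0 downward, and summed to 1.84% of FPKM in mCherry+ cells against 1.57% in double-negative cells. The fast muscle parvalbumin gene pvalb1 had 3113 FPKM in mCherry+ cells against 1318 in double-negative cells and 4282 in EGFP+ cells. The myosin gene myhz1.1 had 135 FPKM in mCherry+ cells against 31.5 in double-negative cells. The muscle regulator genes myog, at 2.95 FPKM in mCherry+ and 14 in double-negative cells, and myod1, at 2.99 FPKM in mCherry+ and 11.5 in double-negative cells, had the opposite sign. The median of the muscle list was 0.64 and became 0.00 when libraries were scaled to equal sums. The part of muscle RNA in other results was not tested.

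Lists of vessel, pigment and further blood lineages followed. The endothelial median of −0.43 rose above 0 at a minimum of 10 FPKM. Of 18 endothelial genes, 3 passed 4-fold upward and 0 downward: stab1l, the ETS gene fli1b at 17.3 FPKM in mCherry+ and 1.26 in double-negative cells and the angiopoietin receptor gene tek at 6.24 FPKM in mCherry+ and 0.532 in double-negative cells. The endothelial cadherin gene cdh5 was at 5.86 FPKM in mCherry+ and 8.36 in double-negative cells and the receptor gene flt4 at 2.54 FPKM in mCherry+ and 4.48 in double-negative cells. Mast cell, thrombocyte and lymphoid lists had 11 tested genes between them, of which ms4a17a.6, at 21.5 FPKM in mCherry+ cells and listed at 0 in double-negative cells, and the lymphoid and myeloid factor gene ikzf1, at 8.55 FPKM in mCherry+ and 0.627 in double-negative cells, were at least 4-fold higher. The mast cell protease gene cpa5 was at 5.19 FPKM in mCherry+ and 17.4 in double-negative cells. Of 16 pigment cell genes, csf1ra alone was at least 4-fold higher, and the iridophore gene pnp4a was at 4.02 FPKM in mCherry+ and 61.4 in double-negative cells.

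Pairs of gene copies were counted as well. Zebrafish kept many duplicates from a whole-genome duplication, usually named with a final a and b. By symbol alone, 1110 such pairs had both genes tested. Some of these pairs are distinct subunits rather than copies, such as cyba and cybb. In 25 pairs both genes were at least 4-fold higher, in 37 both were at least 4-fold lower, in 114 a single gene was higher with the other within 4-fold, in 146 a single gene was lower with the other within 4-fold, and in 778 neither passed. In 10 pairs the genes passed 4-fold in opposite directions, and in 12 to 14 pairs after the 3 scalings. Over all tested genes 8.31% passed upward and 7.47% downward, so unrelated genes would also form such pairs. The 10 pairs are described below and are not read as a trait of duplicates.

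The 10 opposite pairs included enzymes and binding proteins. The glycerol 3-phosphate dehydrogenase gene gpd1a had 191 FPKM in mCherry+ cells against 4.11 in double-negative cells, and gpd1b had 5.2 FPKM in mCherry+ cells against 71.5 in double-negative cells. The selenium carrier gene sepp1a had 969.7 FPKM in mCherry+ cells against 113 in double-negative cells, and sepp1b had 0.165 FPKM in mCherry+ cells against 18.4 in double-negative cells. The galectin gene lgals2a had 880.1 FPKM in mCherry+ cells against 95.6 in double-negative cells, and lgals2b had 9.57 FPKM in mCherry+ cells against 99 in double-negative cells. For the galectin pair the double-negative levels were nearly equal while the mCherry+ levels were far apart. The annexin gene anxa3b had 218 FPKM in mCherry+ cells against 12.4 in double-negative cells, and anxa3a had 1.6 FPKM in mCherry+ cells against 10.4 in double-negative cells. The other 6 were elovl1, epb41l3, rnasek, bin2, gpx1 and dbnl, with the b copy higher in elovl1, epb41l3, bin2 and dbnl and the a copy higher in rnasek and gpx1.

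**Figure D5:**
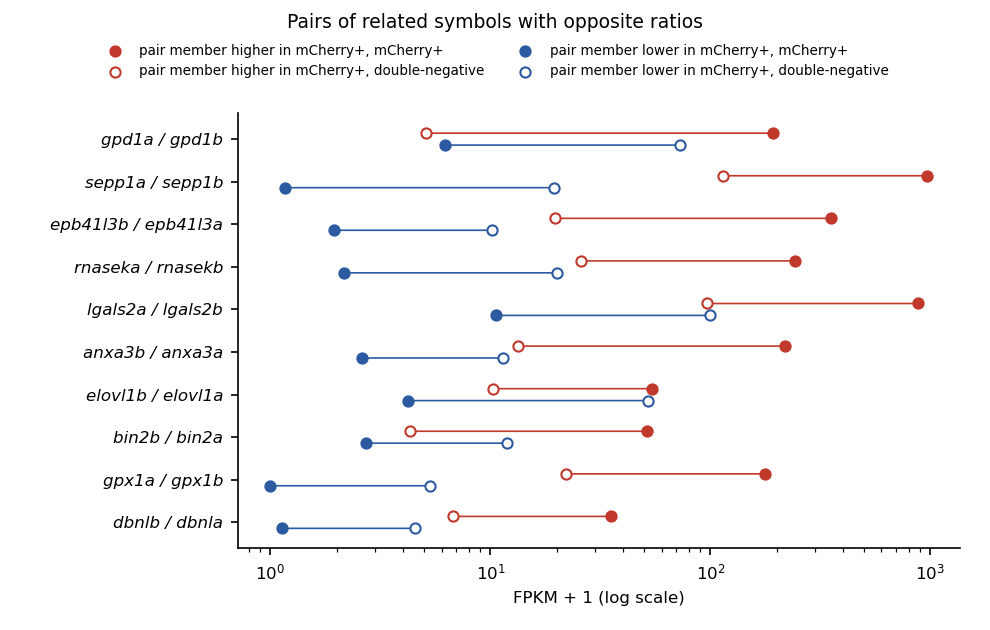
FPKM + 1 on a log axis for the 10 pairs of related symbols in which 1 gene passed 4-fold upward (red) and the other downward (blue) in mCherry+ cells; filled points are mCherry+ cells and open points double-negative cells. In each pair the filled red point lies right of its open point and the filled blue point left of it.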

How the data were processed

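Per the labels' protocols, cells of embryos raised at 28 °C were sorted, RNA was extracted in Trizol LS with a polyacrylamide carrier, and 50 ng was depleted of ribosomal RNA and amplified with a low-input kit before sequencing. The authors deposited FPKM values for 14428 genes in 3 libraries, made with TopHat2 2.0.11, Cufflinks 2.2.1 and cutadapt against danRer7, per the submitters' processing notes. Of their settings, strand handling and annotation the sources used here say nothing. The 2 libraries compared are 1 sample each, so their differences have no replicate check. From the deposited FPKM, log2 ratios were computed with a pseudocount of 1 (Python 3.11.15, pandas 2.3.3, numpy 2.4.6), and at least 4-fold was the threshold. Read depth is unknown: among low genes of the mCherry+ and double-negative columns no shared step between values gave it. Gene copies of similar sequence may share reads.

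The 41 gene lists and 70 symbol families, with 1292 of 1681 list entries found, and the genes compared were chosen with earlier results of these data known. Named genes were drawn from the 25 largest ratios in each direction at 10 FPKM or more, the 25 most abundant genes, up to 8 highest and 5 lowest members per list at 5 FPKM or more, mpeg1, mpx and the genes nearest a threshold, leaving out clone names. Not all of these are printed, and the choice among them was made with values known. Outside the rule, and picked once values had been seen, are abcb9, actb2, arpc1a, asah1b, atf3, cdh1, col1a1a, cysltr1, egr1, elovl1b, epcam, flt4, fos, fth1a, gm2a, gpd1a, gpd1b, hcst, illr4, isg15, lgmn, lyn, mcl1b, mfge8b, mitfa, nckap1, neu3.1, nox1, pls3, ptgs1, ptgs2a, ptgs2b, rab25b, rel, rn7sk, sepp1a, sepp1b, syk, timd4, tlr4ba, waslb, yes1 and zeb2a. Older names were matched through RefSeq tables, with 13921 IDs matched. Alternatives were other pseudocounts, filters, scalings and fold thresholds.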

Additional observations from a re-analysis of the deposited data

How the results depend on the processing

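The counts at 4-fold depended on the settings. A pseudocount of 0.1 gave 1923 genes lower, and a pseudocount of 5 gave 651 higher and 212 lower. A minimum of 10 FPKM gave 592 lower. Scaling to equal FPKM sums gave 651 higher and 1726 lower, and scaling by housekeeping genes gave 1528 lower. A 2-fold threshold gave 2445 higher and 2959 lower, and an 8-fold threshold gave 480 higher and 172 lower. Higher genes made up 39.85% of the calls at a pseudocount of 0.1, 75.43% at a pseudocount of 5, 61.1% at a minimum of 10 FPKM, 45.24% at 2-fold and 73.62% at 8-fold. Of the medians of 111 lists and families, 58 moved by more than the scatter between 61 housekeeping genes (0.59 log2 units) when libraries were scaled to equal sums, 40 at a minimum of 10 FPKM, 29 at a pseudocount of 5, 18 at a pseudocount of 0.1 and 12 with no filter. Scaling by the median ratio or by housekeeping genes shifts all genes by less than that scatter, so that limit could not be passed, and 12 and 18 medians changed sign there or became 0. No paired analysis was possible because each group is 1 library, and for the same reason no library could be left out. The search for promoter motifs was not run. Unknown depth limits statements on genes of low FPKM, and with no replicates the spread between sorts is unknown.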

Other observations

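Several gene families had members past 4-fold in both directions. Over all tested genes, 8.31% passed upward and 7.47% downward. Family counts near these shares are described and not read as a trait of the family. Galectins and galectin-binding proteins, which bind sugars on cells and matrix, had 6 of 12 genes past 4-fold upward and 2 downward in mCherry+ cells. Beside lgals9l1 the higher members included lgals9l3, with 228 FPKM in mCherry+ cells against 3.7 in double-negative cells. On the lower side lgals1l1 had 33.7 FPKM in mCherry+ cells against 338 in double-negative cells. Annexins, which bind membranes in the presence of calcium, had 2 of 15 higher and 4 lower, with anxa2a at 15.6 FPKM in mCherry+ and 73.8 in double-negative cells and anxa1b at 5.75 FPKM in mCherry+ and 41.5 in double-negative cells. Small calcium-binding S100 genes had 1 of 9 higher and 4 lower, with s100a1 at 12.7 FPKM in mCherry+ and 0.244 in double-negative cells and the glial gene s100b at 0.33 FPKM in mCherry+ and 19.6 in double-negative cells. Keratins had 1 of 16 higher and 8 lower: the higher one was krt18b, a simple-epithelium filament gene, with 303 FPKM in mCherry+ cells against 43.3 in double-negative cells. Its usual partner krt8 was nearly equal, at 359.7 FPKM in mCherry+ and 339 in double-negative cells. Reads of similar keratin copies may be shared.

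Among tetraspanins, membrane organizers, 3 of 30 passed 4-fold upward and 4 downward. The gene tspan36, known in fish from pigment cells, had 1783 FPKM in mCherry+ cells against 40.7 in double-negative cells and 29.3 in EGFP+ cells, while cd81b had 0.845 FPKM in mCherry+ cells against 17.9 in double-negative cells. Lipid kinases and phosphatases of the phosphoinositide pathway had 7 of 39 higher and 0 lower, with a median of 0.39 that fell below 0 when libraries were scaled to equal sums or by housekeeping genes. They included pi4k2a, which acts on endosomes and lysosomes, with 166 FPKM in mCherry+ cells against 7.05 in double-negative cells, and the leukocyte kinase gene pik3cg, with 38 FPKM in mCherry+ cells against 1.36 in double-negative cells. Cytochrome P450 genes had 1 of 50 higher and 12 lower, the higher one being cyp4f3, whose human counterpart inactivates leukotriene B4, with 9.0 FPKM in mCherry+ cells against 0.169 in double-negative cells and 70.5 in EGFP+ cells.

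Some genes with large ratios have not yet been described. The lysosomal autophagy regulator gene dram1 had 492 FPKM in mCherry+ cells against 2.54 in double-negative cells. The gene ocstamp, known from the fusion of osteoclasts in mammals, had 136 FPKM in mCherry+ cells and was listed at 0 in double-negative cells. The kinase gene prkcq, known from T cells in mammals, had 161 FPKM in mCherry+ cells against 0.229 in double-negative cells. The immune-type receptor gene dicp3.1 had 255 FPKM in mCherry+ cells against 0.785 in double-negative cells and 246 in EGFP+ cells. Lower genes included plasma proteins of liver. The apolipoprotein M gene apom had 0.807 FPKM in mCherry+ cells against 55.8 in double-negative cells, and the kininogen gene kng1 had 0.626 FPKM in mCherry+ cells against 40.5 in double-negative cells. The gene ttc36 had 0.728 FPKM in mCherry+ cells against 67.7 in double-negative cells. Lens and photoreceptor genes had 23 of 23 ratios below 0, 9 of them at least 4-fold, with the opsin gene opn1lw2 at 28.6 FPKM in mCherry+ and 185 in double-negative cells. In EGFP+ cells crybb1, a lens crystallin gene, was at 132 FPKM, against 2.8 FPKM in mCherry+ and 20.9 in double-negative cells.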
